A study of Mus musculus with 104 samples.

Results

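The guanylate-binding protein family was followed across every library of a study of how mouse liver macrophages take on their identity. Its members were the 9 gene symbols Gbp2, Gbp2b, Gbp3, Gbp4, Gbp5, Gbp6, Gbp7, Gbp8 and Gbp9, read as the first name in the annotation of each row. All 9 were found among the 24940 genes of each of the 8 expression tables. The tables hold 104 RNA-seq libraries in 47 groups, and the values are TPM, a transcript level scaled for transcript length and library size.

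The first table holds Ly6C-high blood monocytes of C57BL/6J mice (4 libraries), repopulating liver macrophages of Clec4f-cre/Rosa26iDTR mice, and Kupffer cells, which are the liver's own macrophages, from such mice given PBS and taken at 72 h (3 libraries). In these mice Cre is driven by Clec4f, a gene of Kupffer cells, and makes those cells sensitive to diphtheria toxin, so that toxin empties their niche. Repopulating macrophages were taken 12 (2 libraries), 24 (3), 48 (2), 72 (2), 168 (3) and 336 h (3) after toxin. They therefore come from livers in which resident macrophages had died, up to 336 h before. The second table holds TIM4+ Kupffer cells of Nr1h3 flox/flox mice, TIM4+ and TIM4- Kupffer cells of Nr1h3 flox/flox Clec4f-cre+/- mice, and wild-type and Nr1h3 knockout macrophages grown from bone marrow for 7 days (BMDMs), with 2 libraries each. Nr1h3 encodes LXR-alpha, a receptor for sterols. The third holds C57BL/6J liver cells sorted as STAB2-low, STAB2-intermediate and STAB2-high, STAB2 being a scavenger receptor of liver sinusoidal endothelium (2 libraries each). The fourth holds Kupffer cells of Smad4 flox/flox mice (2 libraries) and TIM4+ (3) and TIM4- (2) Kupffer cells of Smad4 flox/flox Clec4f-cre mice. SMAD4 carries TGF-beta signals to the nucleus.

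The remaining tables are treatments. Control and Smad4 knockout BMDMs of 4-day culture were left untreated or given TGF-beta, DLL4, DLL4 with DAPT, or DLL4 with TGF-beta for 24 h (10 groups of 2). C57BL/6J BMDMs were left untreated or given DLL4, DLL4 with TGF-beta, or all of DLL4, TGF-beta and DMHCA for 24 h (4-day culture) or 72 h (6-day culture), and DMHCA alone for 24 h (9 groups of 2). Marrow monocytes of C57BL/6J mice in 2-day culture, male BMDMs by the table's headers, were kept 48 h untreated, with DLL4, with desmosterol, with DLL4 and TGF-beta, or with DLL4, TGF-beta and desmosterol (5 groups of 2). Repopulating macrophages were taken 24 h after toxin from mice labelled C57BL/6J that were given LY411575 (3 libraries, 2 of its control) or antibodies to DLL1 and DLL4 (4 libraries, 2 of their control). The headers name all these mice as fasted, the drug arm as female and the antibody arm as male. DLL1 and DLL4 are ligands of the Notch receptor, and DAPT and LY411575 block gamma-secretase, the protease that releases the active part of Notch. DMHCA is a synthetic sterol and desmosterol an intermediate of cholesterol synthesis, and both activate LXR.

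Guanylate-binding proteins are large GTPases of the dynamin superfamily that interferons, interferon-gamma above all, induce in macrophages and many other cells. They assemble on vacuoles that hold bacteria or parasites and on free bacteria, help to break these open, and promote inflammasome signalling, which is how macrophages sense microbial products in the cytosol. Interferon-gamma acts through its receptor and JAK kinases and induces IRF1. Promoters of genes that interferons induce often carry GAS elements or interferon-stimulated response elements (ISREs). Gbp2, Gbp2b and Gbp5 carry a lipid (prenyl) anchor at their end. Gbp2, which is recruited to pathogen vacuoles, and Gbp2b, once called Gbp1 in mice, lie in one cluster with Gbp5, which promotes NLRP3 inflammasome assembly, Gbp7, which is tied to oxidative killing, and Gbp3. Gbp4, which is reported to restrain IRF7, lies with Gbp6, Gbp8 and Gbp9 in a cluster on another chromosome.

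In the mm10 coordinates of the deposited tables, the first cluster is on the plus strand of chromosome 3, in the order Gbp5 (chr3:142496934-142522344), Gbp7 (chr3:142530336-142550151), Gbp3 (chr3:142560044-142573213), Gbp2b (chr3:142594847-142619176) and Gbp2 (chr3:142620663-142638008). The second is on the minus strand of chromosome 5, with Gbp8 (chr5:105014153-105053561), Gbp9 (chr5:105076466-105110292), Gbp4 (chr5:105115767-105139586) and Gbp6 (chr5:105270702-105293699). Each span is that of the transcript listed in 1 or more of the tables, and 4 members (Gbp3, Gbp4, Gbp7 and Gbp9) are listed with another transcript in some table, so that their levels per length are set side by side between tables with that limit. Of all 50-base stretches in the transcripts of Gbp6, 70.7% also occur in another gene, so its values are uncertain. The share was 18.1% for Gbp8, 12.7% for Gbp7 and 8.05% or less for the other 6 members.

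Promoters are shown for the 5 of 9 members that had a window in the RefSeq table (GRCm38.p6), which are those of chromosome 3, to set the interferon elements beside the responses described further on. Each is the 250 bases before a start, on the plus strand. Gbp3 has 2 starts in the table, and the first is printed. Capitals mark the ISRE core, searched as GAAA, any 2 bases and GAAA again, and on the other strand as TTTC, any 2 bases and TTTC.
Gbp5 (chr3:142496684-142496933): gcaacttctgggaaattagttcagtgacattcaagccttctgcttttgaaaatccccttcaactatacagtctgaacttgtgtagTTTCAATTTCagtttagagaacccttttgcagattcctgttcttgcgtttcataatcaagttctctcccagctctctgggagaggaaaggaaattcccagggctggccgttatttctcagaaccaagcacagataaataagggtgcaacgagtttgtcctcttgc
Gbp7 (chr3:142530086-142530335): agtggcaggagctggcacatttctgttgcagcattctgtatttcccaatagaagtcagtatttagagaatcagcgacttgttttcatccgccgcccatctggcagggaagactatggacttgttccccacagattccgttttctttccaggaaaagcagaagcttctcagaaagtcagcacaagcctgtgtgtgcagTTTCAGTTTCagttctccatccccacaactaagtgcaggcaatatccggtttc
Gbp3 (chr3:142559794-142560043): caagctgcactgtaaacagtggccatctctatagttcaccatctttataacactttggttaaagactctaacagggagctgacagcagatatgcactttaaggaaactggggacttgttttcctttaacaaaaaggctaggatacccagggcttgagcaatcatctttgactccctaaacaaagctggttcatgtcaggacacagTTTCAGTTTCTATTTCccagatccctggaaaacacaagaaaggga
Gbp2b (chr3:142594597-142594846): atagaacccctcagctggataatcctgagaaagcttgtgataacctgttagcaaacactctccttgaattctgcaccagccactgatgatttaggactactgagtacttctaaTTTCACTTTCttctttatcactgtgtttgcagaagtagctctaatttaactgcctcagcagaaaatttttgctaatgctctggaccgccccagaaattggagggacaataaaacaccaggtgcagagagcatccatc
Gbp2 (chr3:142620413-142620662): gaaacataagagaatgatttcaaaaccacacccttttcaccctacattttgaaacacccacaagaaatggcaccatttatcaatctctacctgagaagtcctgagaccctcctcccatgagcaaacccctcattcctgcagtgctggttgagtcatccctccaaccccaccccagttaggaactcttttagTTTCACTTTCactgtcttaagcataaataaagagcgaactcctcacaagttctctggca
The core was found in these 5 windows, always on the reverse strand, and not in that of the second Gbp3 start (chr3:142560106-142560355), so in 5 of 6 windows. It was found in 2.98% of 32851 windows of the same length over all genes. Its first base lay 165 bases before the start in Gbp5, 137 in Gbp2b, 59 in Gbp2 and 53 in Gbp7, and Gbp3 held 2 overlapping matches, at 45 and 39 bases. The GAS letters TTCNNNGAA were found 2 times in Gbp5 and 2 times in Gbp7, against 7.02% of all windows with any. The RBPJ letters TGGGAA or TTCCCA, those of the DNA-binding partner of Notch, were found in Gbp5 (2 matches), Gbp7 (1) and Gbp3 (1), against 21.6% of all windows. These are matches of letters and were not measured as binding.

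Libraries held between 7830310 and 27776605 reads on genes, as recovered from the TPM. The replicate libraries are not said to come from separate animals or cultures, so p-values measure only the spread between these libraries. Of 69 pairs of replicates, 0 were identical. The chi-square per degree of freedom between the reads of a pair, larger where replicates differ more, ran from 1.56 to 53.41. The highest was in TIM4+ Smad4 knockout Kupffer cells. It was 27.89 for control BMDMs with TGF-beta, against 4.59 or less in the other groups of that table. For untreated C57BL/6J BMDMs at 24 h it was 22.89. Nr1h3 gene totals were 393 to 409 TPM in control Kupffer cells and 341 to 422 in those labelled Nr1h3 knockout, and a total over the transcript does not check a deletion of part of it. In BMDMs the total was 41.9 to 43.3 TPM against 8.05 to 8.81. Smad4 was 33.4 to 35.7 TPM in control Kupffer cells and 13.7 to 21.5 in the knockout groups. Some labels disagree with one another. BMDMs titled 72 h carry a treatment label of 24 h, controls of the in vivo blockade carry the drug or antibody in one label, Smad4 knockout BMDMs are labelled Clec4f-cre where the series text names LysM-cre, and the in vivo blockade mice are labelled C57BL/6J where it names Clec4f-Cre/DTR. Titles were followed for time and treatment.

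A gene was called in a comparison when its limma p, adjusted by Benjamini-Hochberg over all genes tested, was below 0.05 and the difference was at least 2-fold on the log2(TPM + 1) scale. Differences below are log2 differences on that scale with the standard error (SE), and they understate the change of low genes. A lone number after such a difference in parentheses is limma's adjusted p. Genes entered the test with at least 4 TPM in 2 libraries of a table, so a member low in most groups enters only through the group where it is high.

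Across the series the members peaked in different cells. Each table was normalized separately, so the levels that follow are set side by side and not tested. Gbp2, at 418 ± 7.14 TPM (SD, n = 2), and Gbp5, at 38.0 ± 4.48 TPM, had their highest group means in marrow monocytes given DLL4, the former with TGF-beta and desmosterol and the latter without. Gbp2b was highest in control Kupffer cells of Nr1h3 flox/flox mice (378 ± 10.9 TPM), followed by marrow monocytes with DLL4 (261 ± 1.16 TPM), and was at 0 in all libraries of 9 of the 47 groups. Gbp3 (175 ± 0.19 TPM) and Gbp7 (118 ± 3.31 TPM) were highest in marrow monocytes given DLL4 and TGF-beta, Gbp3 with desmosterol as well. Gbp4 (192 ± 34.9 TPM), Gbp9 (172 ± 4.71 TPM) and Gbp6 (14.6 ± 1.12 TPM) were highest in STAB2-low liver cells, and Gbp8 (201 ± 16.1 TPM) in TIM4- Kupffer cells labelled Nr1h3 knockout. Every member was lowest, by group mean, in BMDMs without DLL4, or with DAPT or DMHCA beside it. The neighbours of these top groups were often within their spread: for Gbp2b the next group of its table, TIM4- cells labelled knockout at 235 ± 33.4 TPM, did not overlap the top one, while for Gbp8 TIM4+ cells labelled knockout (194 ± 2.34 TPM) lay within the range of the TIM4- ones.

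Blood monocytes and Kupffer cells shared 5 abundant members, and Kupffer cells had 4 more at higher levels. The monocytes came from another mouse line than all liver groups of this table. Line and cell type therefore cannot be told apart in any comparison with monocytes. In Kupffer cells 4 members were called higher than in monocytes (Gbp8, Gbp2b, Gbp4 and Gbp6) and 0 lower, where 19.2% of all tested genes were called higher. Of these, Gbp2b, Gbp6 and Gbp8 reach 4 TPM in liver libraries alone. Gbp4 reaches it outside them in the third monocyte library alone, short of the filter's 2 libraries. All 4 therefore pass the filter through liver libraries, and the count supports nothing by itself. The other 5, namely Gbp2, Gbp3, Gbp5, Gbp7 and Gbp9, were at 18.8 TPM or more in each monocyte library. The sum over the 9 members was 143, 188, 379 and 182 TPM in the 4 monocyte libraries and 260.2, 338 and 312 TPM in the 3 Kupffer cell libraries. The ranges of the sum overlap, since the third monocyte library was highest of its group.

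Gbp8, a member of the chromosome 5 cluster, was at 0.523, 0.893, 1.79 and 0.608 TPM in monocytes. It was at 9.46 and 9.13 TPM at 12 h and 32.8, 46.4 and 61.7 TPM at 24 h after toxin. It then reached 115 and 81.6 TPM at 72 h, 107, 144 and 140.2 TPM at 336 h and 92.4, 105 and 94.2 TPM in Kupffer cells. Every liver library lay above every monocyte library. Gbp8 rose by 2.44 ± 0.23 at 12 h (adjusted p = 9.9e-08, limma), by 4.61 ± 0.20 at 24 h (3.0e-12) and by 5.69 ± 0.20 in Kupffer cells (3.8e-14), all against monocytes. From 12 to 24 h it rose by 2.17 ± 0.24 (adjusted p = 6.8e-06, limma), the single member called over that step, where 3.42% of genes were called higher.

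Gbp2b followed later. It was at 0.101, 0, 0.104 and 0.221 TPM in monocytes, 0.252 and 0.571 TPM at 12 h and 0.6, 1.62 and 3.13 TPM at 24 h. It was at 2.21 and 6.70 TPM at 48 h and 22.1 and 8.11 TPM at 72 h. It reached 115, 93.1 and 87.7 TPM at 168 h, 169, 146 and 115 TPM at 336 h and 37.1, 59.8 and 49.8 TPM in Kupffer cells. Groups from 48 h on did not overlap with monocytes, 12 h or 24 h, apart from 48 h against 24 h, where 2.21 TPM lay below the highest library. Gbp2b rose by 2.77 ± 0.40 from 72 to 168 h (adjusted p = 5.4e-05, limma), again the single member called in a step in which 2.37% of genes were called higher. Against Kupffer cells the difference was -1.76 ± 0.40 at 72 h (adjusted p = 0.0021, limma), a call lost without the second 72 h library (log2 -1.08, adjusted p = 0.09). At 336 h it was higher than in Kupffer cells by 1.54 ± 0.36 (0.0058). At 168 h it was higher by 1.02 ± 0.36 (0.048), a call that no fit with 1 library left out kept (log2 0.83 to 1.17).

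**Figure D1:**
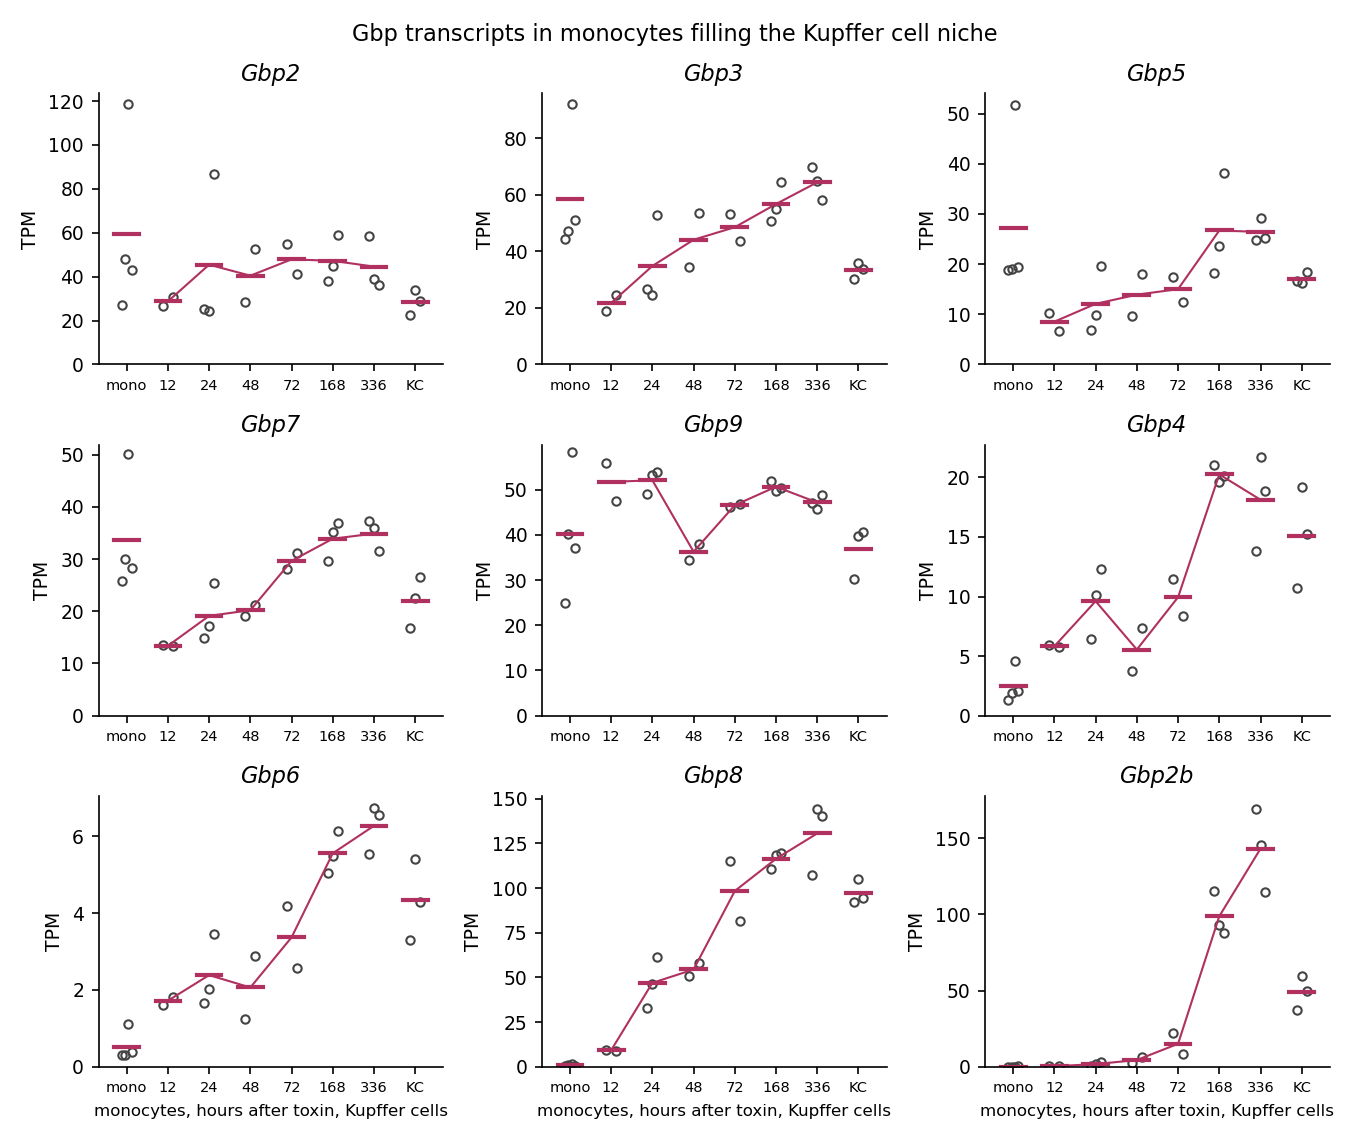
TPM of each of the 9 members (1 panel each, y axis from 0) in blood monocytes, repopulating liver macrophages 12 to 336 h after toxin and Kupffer cells. Points are libraries and bars are group means. Gbp8 is above the monocyte libraries from 12 h on, and Gbp2b is highest at 168 and 336 h.

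Gbp4 was at 1.35, 1.90, 4.55 and 2.06 TPM in monocytes, 5.90 and 5.76 TPM at 12 h, 13.8, 21.7 and 18.9 TPM at 336 h and 10.7, 19.2 and 15.3 TPM in Kupffer cells. Every 12 h, 336 h and Kupffer cell library was above every monocyte library. It rose by 1.06 ± 0.31 at 12 h (adjusted p = 0.0069, limma), a call lost without the first (0.90) or the second monocyte library (1.00, just under the threshold), and by 2.26 ± 0.28 in Kupffer cells (8.3e-07). Gbp6, whose reads are uncertain, was at 0.298 to 1.12 TPM in monocytes and 3.3, 5.41 and 4.29 TPM in Kupffer cells, a rise of 1.82 ± 0.23 (adjusted p = 1.5e-06, limma).

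Members abundant in monocytes were lower at the earliest time. Gbp3 was at 44.4, 47.2, 92.3 and 51.1 TPM in monocytes and 19.0 and 24.5 TPM at 12 h, and fell by 1.34 ± 0.28 (adjusted p = 0.00052, limma). Gbp7 was at 25.9, 30.0, 50.1 and 28.4 TPM and 13.5 and 13.3 TPM, and fell by 1.22 ± 0.23 (0.00016). Gbp5 was at 18.8, 19.0, 51.8 and 19.4 TPM and 10.3 and 6.76 TPM, and fell by 1.45 ± 0.40 (0.0043). The groups did not overlap in any of these 3 genes, but the Gbp5 call was lost without the second 12 h library (log2 -1.18, adjusted p = 0.074). At 12 h, 2 members were called higher and 3 lower, where 25.2% of genes were called in either direction. Gbp9 did not show this dip: it was at 25.0, 40.3, 58.3 and 37.2 TPM in monocytes and 56.0 and 47.4 TPM at 12 h, a difference of 0.41 ± 0.20 (0.083). Gbp2 was at 27.1, 48.2, 119 and 43.1 TPM and 26.8 and 30.6 TPM, a difference of -0.81 ± 0.49 (0.16).

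Counts of members called against monocytes were 4 higher and 1 lower at 24 h (33.4% of all genes in either direction), 2 higher at 48 h (20.6% higher), and 4 higher at 72 h (21.4%), 168 h (16.2%) and 336 h (16.0%), with 0 lower from 48 h on. With so many genes called, counts of this size are not results about the family. Of the 24 h calls, those of Gbp2b and Gbp6 were lost without the third 24 h library (0.89 and 0.93), and that of Gbp5, whose groups overlap, without the third monocyte library (-0.74) or the first 24 h library (-0.78). Without the third monocyte library 6 members were called at 12 h, 4 at 24 h and 4 at 48 h, and 4 at each later time and in Kupffer cells. The 48 h count also went to 4 without the first 48 h library. Against Kupffer cells 3 members were called lower at 12 h (13.7% of genes lower), 2 at 24 h (7.83%), 2 at 48 h (8.19%) and 1 at 72 h (4.31%), and 1 was called higher at 168 h (1.27% of genes higher) and at 336 h (0.932%). Gbp8 was not called against Kupffer cells at 24 h without the first 24 h library (-0.85, adjusted p = 0.0039, limma), nor Gbp4 at 48 h without the first 48 h library (-0.91, 0.072), while 3 members were called at 48 h without the second. Between neighbouring times limma called 0 members from 24 to 48 h (4.26% of genes, 3 members at unadjusted p below 0.05), 0 from 48 to 72 h (0.422%, 3 members) and 0 from 168 to 336 h (0.0703%, 0 members).

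As shares of the summed TPM, the members stood in another order at the ends of the course. Gbp3 made up 27.1% ± 2.99 (SD, n = 4) of the summed TPM in monocytes and 11.1% ± 0.55 (SD, n = 3) in Kupffer cells. Gbp2 made up 24.9% ± 5.16 and 9.35% ± 0.7. Gbp8 went the other way, from 0.41% ± 0.07 to 32.2% ± 2.86, and Gbp2b from 0.05% ± 0.05 to 16.0% ± 1.72. At 336 h Gbp2b made up 27.6% ± 3.95 (SD, n = 3).

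Markers of other cells moved with these groups. The 6 Kupffer cell markers summed to 0 to 1.05 TPM in monocytes, where Clec4f and Marco were at 0, and to 13287 to 14014 TPM in Kupffer cells, and the 6 monocyte markers to 4655 to 6422 against 27.4 to 46.0 TPM. Hepatocyte markers summed to 0 to 0.37 TPM in monocytes and 342 to 4195 TPM in Kupffer cells, and T and NK lymphocyte markers to 1.01 to 3.36 against 10.6 to 86.0 TPM. Their part in these differences was not tested. The 7 sinusoidal endothelial markers summed to 0.28 to 0.9 TPM in monocytes, up to 639 TPM at 12 h and 275 to 406 TPM in Kupffer cells, and 15365 to 15434 TPM in the STAB2-high sort of another table, normalized separately. In the STAB2-sorted cells Gbp2b was at 0.447 to 1.41 TPM and Gbp8 at 3.52 to 20.3 TPM, below their Kupffer cell levels, while Gbp4 was at 87.6 to 217 TPM and Gbp9 at 103 to 175 TPM, above them. The part of endothelial RNA in the Gbp4 and Gbp9 values was not tested. In bulk libraries, fewer cells of a type and less RNA per cell cannot be told apart.

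Other interferon-linked genes went both ways, and more of those called were lower than higher. Of all 11373 genes tested in Kupffer cells against monocytes, 3996 were called, 2180 of them higher. Whether the lists differ from all genes was not tested. The list of immunity-related GTPases (IRGs), cousins of the family that interferon-gamma also induces, also holds Gvin1. Gvin1 is a very large inducible GTPase of another family. Counts and sums of IRGs are over this list. Of its genes, 1 rose and 4 fell of 7 tested in Kupffer cells against monocytes. Iigp1 was higher by 4.03, and Ifi47 and Irgm1 were lower (-2.33 and -1.82). Of type I interferon-stimulated genes 2 rose and 6 fell of 18 tested, and of the interferon receptors and JAK-STAT genes 0 rose and 6 fell of 12 tested. Irf1 fell by 1.14 and Socs1, a feedback inhibitor of the pathway, by 1.13 (limma, adjusted p = 0.00028 and 0.0027). Of the genes typical of interferon-gamma 2 rose and 2 fell of 10 tested, with Cd274 (2.57) and Cxcl9 (2.05) higher and Ciita (-1.67) and Nlrc5 (-1.49) lower. Of the inflammasome genes 0 rose and 3 fell of 7 tested, which were Pycard, Casp4 and Casp1. The third monocyte library was also highest of its 4 in the summed IRGs (757 TPM) and in the summed type I interferon-stimulated genes (1557 TPM).

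Cultured macrophages held little of the family. Against wild-type BMDMs of the same table, control Kupffer cells had 9 of 9 members called higher, where 20.6% of genes were called higher. Of these, 7 (all but Gbp2 and Gbp9) reach 4 TPM in Kupffer cell libraries alone, so that they had to differ, and the count supports nothing by itself. Gbp2b was at 386 and 371 TPM in Kupffer cells and at 0.017 and 0 TPM in BMDMs, a difference of 8.55 ± 0.16 (adjusted p = 5.1e-10, limma). Gbp8 was at 142 and 128 against 0.134 and 0.306 TPM (6.80 ± 0.09, adjusted p = 9.1e-11). Gbp2, the most abundant member in these BMDMs, was at 70.3 and 70.4 TPM in Kupffer cells and 8.59 and 9.25 TPM in BMDMs (2.85 ± 0.09, adjusted p = 1.3e-08). No library of either group reached the other in these 3 genes. Other genes of the pathway were called mostly higher: of the IRGs 4 rose and 0 fell of 6 tested, of the interferon-gamma-type genes 6 rose and 0 fell of 10 tested, and of the type I interferon-stimulated genes 7 rose and 3 fell of 18 tested. Irf1 was higher by 2.33 and Ifngr1, which encodes the interferon-gamma receptor's ligand-binding chain, by 2.96. Gbp10 and Gbp11, members of the wider family outside the 9 symbols, were higher by 2.69 and 2.68. Both were low in the control Kupffer cells of other tables, given below. The Kupffer cells here are labelled Nr1h3 flox/flox and the BMDMs wild-type, so that line and cell type cannot be told apart. Sinusoidal endothelial markers summed to 204 to 208 TPM in the Kupffer cells and 17.8 to 18.6 TPM in the BMDMs, and hepatocyte markers to 189 to 668 against 0 TPM. Their part was not tested.

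Kupffer cell levels themselves differed between tables that were normalized separately. Gbp2b was at 37.1, 59.8 and 49.8 TPM in the PBS-treated Clec4f-cre/Rosa26iDTR mice, 76.1 and 98.8 TPM in Smad4 flox/flox mice and 386 and 371 TPM in Nr1h3 flox/flox mice. The sum over members was 260.2 to 338, 326 to 344 and 818 to 870.1 TPM in the same order. Gbp10 was at 4.95 to 5.99 TPM in the Nr1h3 flox/flox libraries and at 0.132 TPM or less in the control Kupffer cells of the other tables. Gbp11 was at 5.18 to 5.67 TPM in the former and at 0.39 TPM or less in the latter. Line and table cannot be told apart here, and these levels were not tested.

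In Kupffer cells labelled Nr1h3 knockout few members were called. In TIM4+ cells 1 of 9 members was called lower than in controls, where 1.29% of genes were called lower. That member, Gbp2b, was at 386 and 371 TPM in controls, 155 and 223 TPM in TIM4+ and 212 and 259 TPM in TIM4- cells labelled knockout. Both groups labelled knockout lay below the controls. It fell by 1.02 ± 0.16 in TIM4+ cells (adjusted p = 0.0026, limma), a call lost without the first control (-0.99, adjusted p = 0.017) or the first TIM4+ library (-0.76, adjusted p = 0.005), and the difference in TIM4- cells was -0.69 ± 0.16 (0.011). Gbp8 was at 142 and 128 TPM in controls, 196 and 192 TPM in TIM4+ and 212 and 189 TPM in TIM4- cells. These did not overlap either, but the differences of 0.52 ± 0.09 and 0.57 ± 0.09 (0.0049 and 0.0022) were below 2-fold. Limma called 0 members in TIM4- cells (4.16% of genes, 5 members at unadjusted p below 0.05), 0 between TIM4- and TIM4+ cells (0.597%, 1 member) and 0 between Nr1h3 knockout and wild-type BMDMs (0.417%, 2 members). Kupffer cell markers summed to 16185 to 16203 TPM in controls, 7963 to 8746 TPM in TIM4+ and 5765 to 5812 TPM in TIM4- cells labelled knockout, and their part in the Gbp2b difference was not tested.

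Deletion of Smad4 in Kupffer cells gave 0 calls among the 8 members tested. This held for TIM4+ cells against controls (0.965% of genes, 1 member at unadjusted p below 0.05, limma), TIM4- cells against controls (1.62%, 0 members) and between both (0.0503%, 0 members). Gbp6 did not reach the filter. The sum over members was 344 and 326 TPM in controls, 168, 313 and 299 TPM in TIM4+ and 242 and 419 TPM in TIM4- cells. With knockout libraries this far apart, 0 calls do not show that levels were unchanged. Gbp2b was at 76.1 and 98.8 TPM in controls, 4.95, 76.6 and 36.6 TPM in TIM4+ and 19.1 and 136 TPM in TIM4- cells. The lowest values, 4.95 and 19.1 TPM, are from 1 library in each knockout group, and these share a number in their titles. Both knockout groups overlap the controls, and the difference in TIM4+ cells was -1.76 ± 1.16 (0.59). Gbp4 was at 11.8 and 9.37 TPM in controls, 1.18, 3.70 and 6.44 TPM in TIM4+ and 4.11 and 12.3 TPM in TIM4- cells. The 3 TIM4+ libraries lay below both controls, with a difference of -1.44 ± 0.58 (0.33), and the TIM4- group overlapped. Gbp8, the most abundant member with Gbp2b, was at 102 and 76.3 TPM in controls, 60.8, 89.2 and 98.1 TPM in TIM4+ and 77.3 and 102 TPM in TIM4- cells, with overlap throughout.

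Liver cells sorted by STAB2 showed higher levels of 4 of the 8 members tested in the STAB2-low fraction than in the STAB2-high one, where 8.09% of genes were called higher. Gbp2b, at 1.41 TPM or less in each library, did not reach the filter. Gbp8 was at 17.2 and 20.3 TPM in STAB2-low and 3.52 and 5.57 TPM in STAB2-high cells, and rose by 1.85 ± 0.27 (adjusted p = 0.0034, limma). Gbp4, among the most abundant members here, was at 168 and 217 against 88.4 and 101 TPM (1.00 ± 0.22, adjusted p = 0.017). Gbp2 was at 96.6 and 96.3 against 41.9 and 52.4 TPM (1.03 ± 0.14, 0.0025), and Gbp6 was higher by 1.04 ± 0.25 (0.022). No fraction overlapped the other in these 4 genes. Gbp9, at 175 and 169 against 103 and 109 TPM, differed by 0.69 ± 0.12 (0.0068), under 2-fold.

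The calls of Gbp2, Gbp4 and Gbp6 in STAB2-low cells were close to the threshold, and quantile normalization ended all 3 (0.94, 0.93 and 0.92), as voom did that of Gbp4 (0.99). Each was also lost when 1 library was left out: Gbp2 without the first STAB2-high library (0.87, adjusted p = 0.013), Gbp4 without that library (0.91, 0.086) or the second STAB2-low one (0.82, 0.1), and Gbp6 without either STAB2-low library (1.12, 0.068, and 0.97, 0.11) or the second STAB2-high one (0.87, 0.097). The STAB2-low libraries carry another library date code than the others, so that fraction and library series cannot be told apart. Endothelial markers summed to 5445 to 6202 TPM in STAB2-low and 15365 to 15434 TPM in STAB2-high cells, and macrophage markers to 334 to 388 against 1589 to 1774 TPM. Their part was not tested. In STAB2-low cells 2 of 7 genes tested of the IRG list rose, while Cxcl9 fell by 3.30 and Irf8 by 2.14. The 2 were Igtp, an IRG (1.16), and Gvin1, which is not one (1.49). Between STAB2-intermediate and STAB2-high cells 0 of 8 members were called (0.00946% of genes, 0 members at unadjusted p below 0.05, limma).

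Blocking Notch in mice 24 h after toxin lowered Gbp8 in the macrophages that were refilling the liver. Gbp8 was at 29.9 and 34.0 TPM in the controls of LY411575 and 11.1, 9.39 and 9.54 TPM with the drug. It was at 30.4 and 37.3 TPM in the controls of the antibodies and 14.2, 14.3, 14.3 and 18.3 TPM with antibodies to DLL1 and DLL4. Every treated library lay below every control. Gbp8 fell by 1.58 ± 0.13 with LY411575 (adjusted p = 7.3e-06, limma), the single member called of 8 tested, where 2.65% of genes were called lower. With antibodies it fell by 1.10 ± 0.13 (0.00031), and 2 of 8 members were called lower, where 1.40% of genes were. Gbp2b, at 0.809 TPM or less in each library, was not tested.

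The second member called with antibodies was Gbp4, which was at 6.51 and 6.83 TPM in controls and 2.46, 2.31, 2.69 and 3.64 TPM with antibodies, and fell by 1.04 ± 0.21 (adjusted p = 0.0085, limma). Without the second antibody control neither was called (Gbp8 -0.96, adjusted p = 0.0057, and Gbp4 -1.01, 0.056). Without the first or the second antibody library the Gbp4 difference fell just under 2-fold (-0.998 and -0.98, adjusted p = 0.021 for each). With LY411575 Gbp4 was at 6.35 and 5.51 TPM in controls and 7.81, 4.51 and 6.08 TPM with the drug, with overlap (0.02 ± 0.22, 0.96). The response of Gbp4 to LY411575 differed from that to the antibodies by 1.05 ± 0.30 (0.043; 1 of 8 members called, 3.55% of genes called higher), a call lost in 9 of the 11 fits that left out 1 library. Gbp9, the most abundant member here, was at 65.4 and 69.3 TPM in drug controls and 54.4, 56.4 and 52.6 TPM with the drug (-0.30 ± 0.07, 0.0083). With antibodies it was at 76.7 and 73.7 against 55.0, 58.4, 54.0 and 51.0 TPM (-0.46 ± 0.07, 0.0014). These Gbp9 groups did not overlap, and the differences were under 2-fold.

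Other interferon-linked genes were mostly uncalled in both arms. Of the IRGs 0 rose and 0 fell of 7 tested with LY411575, and of the type I interferon-stimulated genes 0 rose and 0 fell of 18 tested. With antibodies the counts were 0 rose and 0 fell of 7 IRGs and of 18 type I interferon-stimulated genes. Ciita, the master regulator of MHC class II, fell by 2.01 with LY411575 and differed by -0.91 with antibodies (adjusted p = 0.0033, limma). With LY411575 the monocyte markers summed to 1383 to 1397 TPM in controls and 3198 to 3433 TPM with the drug, macrophage markers to 3183 to 3194 against 1855 to 1922 TPM, and Kupffer cell markers to 101 to 111 against 11.2 to 15.6 TPM. With antibodies macrophage markers summed to 2848 to 3012 against 3168 to 3324 TPM, and hepatocyte markers to 1382 to 3167 against 355 to 1344 TPM. Their part in the Gbp8 difference was not tested. The table's headers name the drug arm female and the antibody arm male, so that sex and kind of blockade cannot be told apart.

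DLL4 raised the family in cultured marrow monocytes. Of the 8 members tested 8 were called higher after 48 h with DLL4, where 9.10% of genes were called higher. Gbp6 stayed at 0.318 TPM or less and was not tested. Gbp2b, Gbp4, Gbp5 and Gbp8 reach 4 TPM only in groups given DLL4. Gbp9 reaches it outside them in the first untreated library alone, short of the filter's 2 libraries. These members pass the filter only through groups given DLL4, so that the count over tested members supports nothing by itself. The sum over members was 20.9 and 18.5 TPM untreated and 1059.8 and 1020.3 TPM with DLL4. Gbp2b was at 0 and 0.088 TPM untreated and 262 and 261 TPM with DLL4 (7.98 ± 0.06, adjusted p = 4.6e-13, limma). Gbp2 was at 6.02 and 5.44 against 315 and 309 TPM (5.54 ± 0.09, 3.5e-11). No DLL4 library overlapped an untreated one in any of the 8 members.

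Gbp3 was at 3.98 and 3.19 TPM untreated and 149.6 and 152 TPM with DLL4 (5.06 ± 0.08). Gbp8 was at 0.389 and 0.234 against 114 and 102 TPM (6.37 ± 0.11), and Gbp7 at 5.78 and 4.94 against 100.4 and 91.7 TPM (3.93 ± 0.07). The other differences were 5.16 ± 0.12 for Gbp4, 4.61 ± 0.16 for Gbp5 and 2.91 ± 0.09 for Gbp9. All 6 of these had an adjusted p of 5.1e-09 or less (limma). Of them, Gbp4, Gbp5, Gbp8 and Gbp9 pass the filter only through groups given DLL4. Chromosome 3 and chromosome 5 members moved together, with the smallest difference in Gbp9, which had 4.18 and 3.53 TPM untreated.

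**Figure D2:**
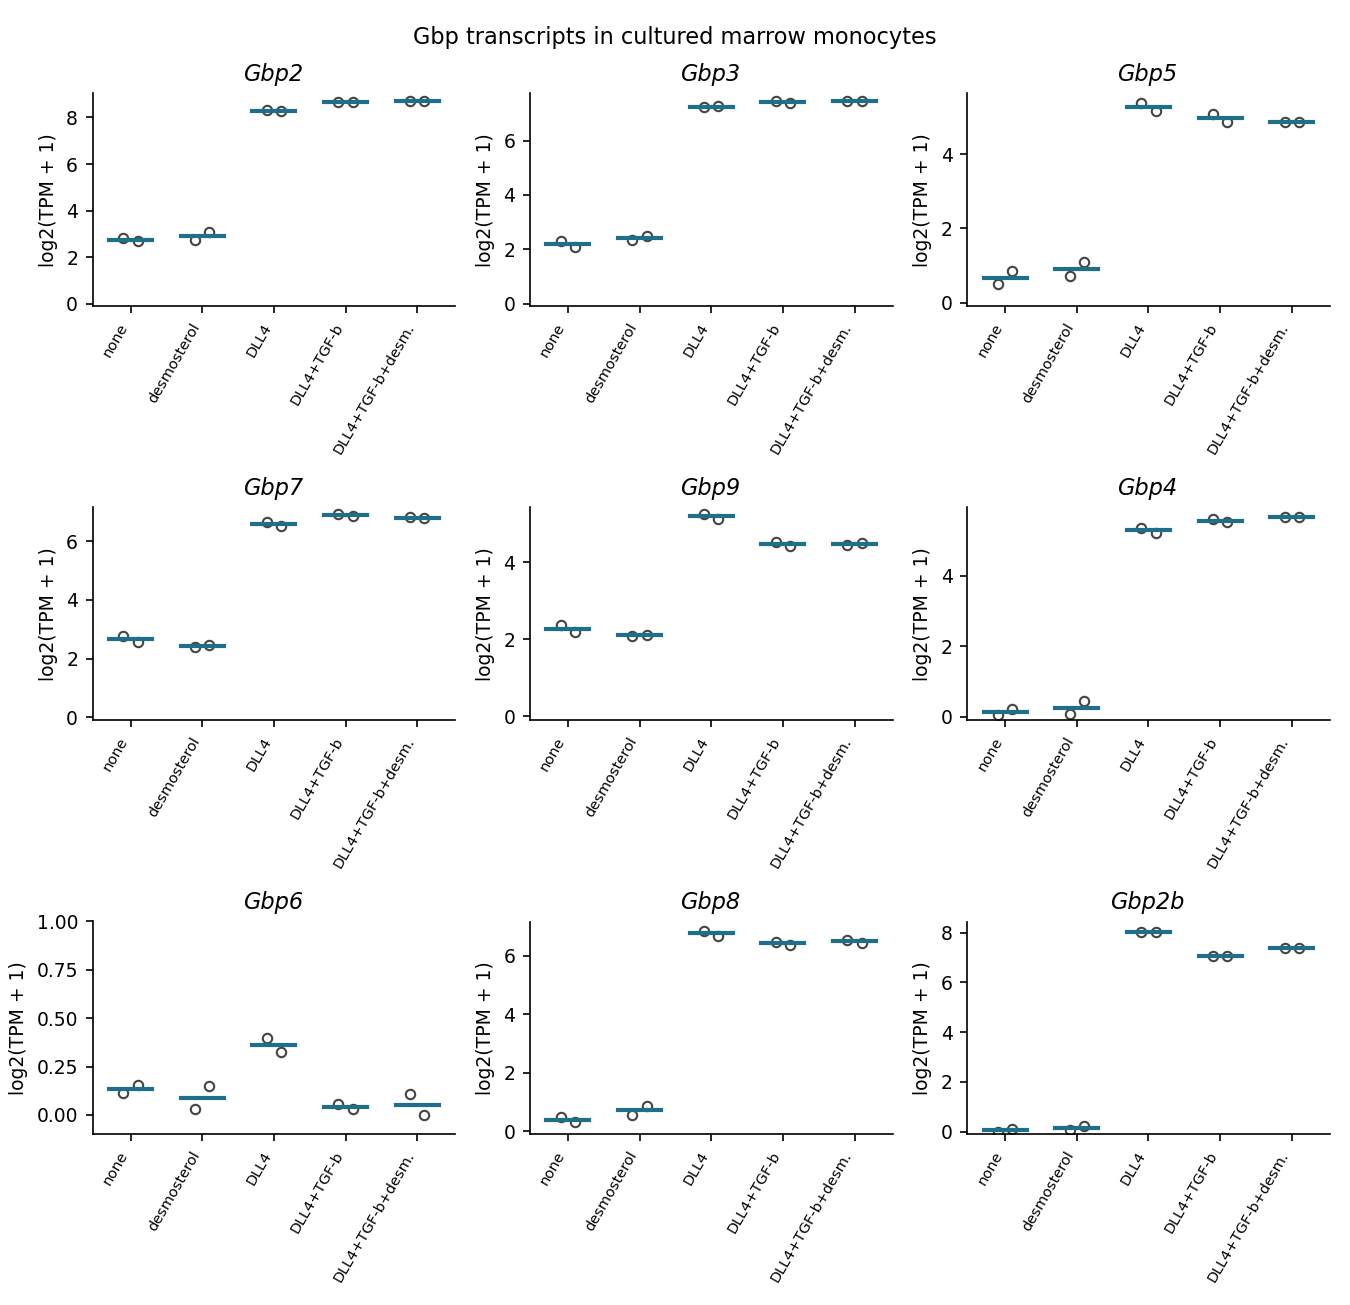
Levels of each member (1 panel each), as log2(TPM + 1), in the 5 groups of marrow monocytes cultured 48 h. Points are libraries and bars are group means. The groups given DLL4 lie above the others in 8 members, and Gbp6 stays at 0.318 TPM or less.

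The rise with DLL4 reached much of the interferon pathway in marrow monocytes. Of the interferon-gamma-type genes 7 rose and 0 fell of 9 tested, with Ciita by 5.49 and Cxcl10, a chemokine for T cells, by 4.34. Of the IRGs 3 rose and 0 fell of 4 tested (Irgm2 by 2.57, Igtp by 1.77 and Ifi47 by 1.43), and of the type I interferon-stimulated genes 11 rose and 1 fell of 18 tested. Irf1 rose by 2.74, Socs1 by 2.41 and Irf8 by 1.55. Of the prenylation enzymes, which attach the anchor of Gbp2, Gbp2b and Gbp5, 0 rose and 0 fell of 5 tested, and of the autophagy conjugation genes that help to load the family onto vacuoles 0 rose and 0 fell of 10 tested. Macrophage markers summed to 1870.0 to 1963 TPM untreated and 3832 to 3903 TPM with DLL4, monocyte markers to 309 to 332 against 109 to 113 TPM, and T and NK lymphocyte markers, of the cells that make interferon-gamma, to 0 to 0.09 against 0.37 to 0.56 TPM. Their part was not tested.

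With TGF-beta on top of DLL4, most type I interferon-stimulated genes fell and the family was not called. Limma called 0 of 8 members between DLL4 with TGF-beta and DLL4 alone (8.81% of genes, 6 members at unadjusted p below 0.05), while of the type I interferon-stimulated genes 0 rose and 14 fell of 18 tested, with Rtp4 by 2.55, Oas2 by 2.36 and Ifit3 by 2.24. Gbp2b was at 133 and 134 TPM with both, below its 262 and 261 TPM with DLL4 alone. That difference of -0.97 ± 0.06 (1.2e-06) was just under 2-fold and was called after quantile normalization (-1.05). Gbp2 was at 406 and 400.1 TPM (0.37 ± 0.09, 0.006), above DLL4 alone, and Gbp9 at 22.1 and 20.2 TPM (-0.72 ± 0.09, 9.4e-05), below it. The groups did not overlap in these 3 genes. Whether list and family differ in their response was not tested.

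Desmosterol alone gave 0 calls of 8 members (0.244% of genes, 3 members at unadjusted p below 0.05, limma), with sums of 20.9 and 18.5 TPM untreated and 18.6 and 22.4 TPM treated. Added to DLL4 and TGF-beta it also gave 0 calls (0.205% of genes, 1 member), with Gbp2b at 133 and 134 TPM without and 165 and 168 TPM with it (0.32 ± 0.06, 0.018).

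BMDMs given DLL4 for 24 h showed the same direction at lower levels. Of the 6 members tested 6 were called higher with DLL4 in control BMDMs of the Smad4 experiment, where 2.89% of genes were called higher. Gbp2b, Gbp4 and Gbp6 did not reach the filter, and Gbp5, Gbp7 and Gbp8 reach 4 TPM only in groups given DLL4, so that the count supports nothing by itself. Gbp9 was at 3.28 and 2.97 TPM untreated and 21.6 and 19.8 TPM with DLL4 (2.40 ± 0.08, adjusted p = 3.0e-11, limma). Gbp2 was at 3.04 and 2.72 against 17.2 and 18.0 TPM (2.26 ± 0.09, 2.0e-10), and Gbp3 at 3.98 and 3.75 against 21.3 and 20.3 TPM (2.16 ± 0.10, 1.1e-09). No group overlapped. Gbp8 rose by 2.62 ± 0.20, Gbp7 by 1.53 ± 0.14 and Gbp5 by 1.49 ± 0.17. Of the untested members, Gbp2b was at 0 and 0 TPM untreated and 0.402 and 0.636 TPM with DLL4, and Gbp4 at 0.427 and 0.252 against 1.22 and 1.29 TPM.

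With DAPT beside DLL4 the members were near their untreated levels. With DLL4 and DAPT against DLL4 alone, 6 of 6 members were called lower, where 1.75% of genes were called lower. Gbp5, Gbp7 and Gbp8 pass the filter only through groups given DLL4 without DAPT, so that this count supports nothing by itself. Gbp9 was at 3.70 and 3.52 TPM with both (-2.24 ± 0.08, adjusted p = 1.9e-10, limma), Gbp2 at 2.78 and 3.59 TPM (-2.16 ± 0.09, 7.0e-10) and Gbp8 at 0.568 and 0.343 TPM (-2.50 ± 0.20, 5.7e-07). Against untreated cells, DLL4 with DAPT gave 0 calls of 6 (0.312% of genes, 1 member at unadjusted p below 0.05). That member was Gbp3, at 3.98 and 3.75 TPM untreated and 5.83 and 5.77 TPM with both (0.48 ± 0.10, 0.015). The comparisons with DLL4 and with DAPT share the DLL4 libraries.

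Few other genes of the pathway were called in these BMDMs. With DLL4, of the type I interferon-stimulated genes 0 rose and 1 fell of 16 tested (Usp18, by 1.28), and of the IRGs 0 rose and 0 fell of 4 tested. Ciita rose by 3.17, Cd274, which encodes the checkpoint ligand PD-L1, by 1.13 and Irf1 by 1.03, and with DAPT they fell by 2.60, 1.32 and 1.09. Neutrophil markers summed to 4659 to 4861 TPM untreated and 5784 to 6936 TPM with DLL4, and macrophage markers to 2507 to 2575 against 3657 TPM. Their part was not tested.

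TGF-beta raised 1 member, Gbp3, in control cells. In control BMDMs Gbp3 was at 3.98 and 3.75 TPM untreated and 10.3 and 12.4 TPM with TGF-beta, and rose by 1.34 ± 0.10 (adjusted p = 1.5e-07, limma; 1 of 6 members, 2.61% of genes called higher). Gbp9 was at 3.28 and 2.97 against 1.69 and 1.72 TPM (-0.61 ± 0.08, 3.4e-05), lower but under 2-fold. On top of DLL4, TGF-beta took Gbp3 from 21.3 and 20.3 to 47.4 and 45.3 TPM (1.12 ± 0.10, 7.1e-07; 1 of 6 members, 2.62% of genes called higher), while of the type I interferon-stimulated genes 0 rose and 5 fell of 16 tested. None of the Gbp3 groups overlapped.

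In Smad4 knockout BMDMs the family was called with DLL4 and Gbp3 was not called with TGF-beta. With DLL4 6 of 6 members were called higher (2.21% of genes called higher), and with DAPT on DLL4 6 of 6 were called lower (1.42% of genes called lower). Here too Gbp5, Gbp7 and Gbp8 pass the filter only through groups given DLL4 without DAPT, so that these counts support nothing by themselves. Gbp9 was at 4.05 and 4.16 TPM untreated, 22.3 and 22.2 TPM with DLL4 and 3.66 and 3.83 TPM with DLL4 and DAPT. The genotypes' DLL4 responses differed in 0 of 6 members by limma (0% of all genes, 0 members at unadjusted p below 0.05), with differences of -0.30 (Gbp3) to 0.25 (Gbp5). Gbp3 was at 6.39 and 7.45 TPM untreated and 8.75 and 8.49 TPM with TGF-beta in the knockout (0.28 ± 0.10, adjusted p = 0.15; 0 of 6 members called, 0.545% of genes, 4 members at unadjusted p below 0.05). On DLL4 it was at 26.2 and 29.2 TPM without and 28.6 and 31.6 TPM with TGF-beta (0.12 ± 0.10, 0.54; 0 of 6 called, 0.799% of genes, 2 members). The knockout libraries with and without TGF-beta were apart in the first case and overlapped in the second.

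The difference between genotypes in the TGF-beta response of Gbp3 was -1.06 ± 0.14 (adjusted p = 0.00035, limma; 1 of 6 members, 0.672% of genes called lower) and -1.001 (SE 0.14) on top of DLL4 (0.00034; 1 of 6, 0.838% called lower). Both are close to the 2-fold threshold. The first fell under it without the second control TGF-beta library (-0.94, adjusted p = 0.00091) or the second untreated knockout library (-0.96, 0.0029). The second fell under it without any of 4 libraries, namely the second control DLL4 (-0.97), the first control DLL4 with TGF-beta (-0.97), the second knockout DLL4 (-0.92) and the first knockout DLL4 with TGF-beta library (-0.93), with an adjusted p of 0.0024 or less each. On DLL4, Gbp8 differed between genotypes by -0.999 with an SE of 0.28 (0.026) and Gbp2 by -0.73 ± 0.13 (0.0015), both under 2-fold. Without treatment 0 of 6 members were called between genotypes (1.13% of genes, 4 members at unadjusted p below 0.05), though Gbp3 was at 3.98 and 3.75 TPM in controls and 6.39 and 7.45 TPM in the knockout (0.70 ± 0.10, 0.00036).

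**Figure D3:**
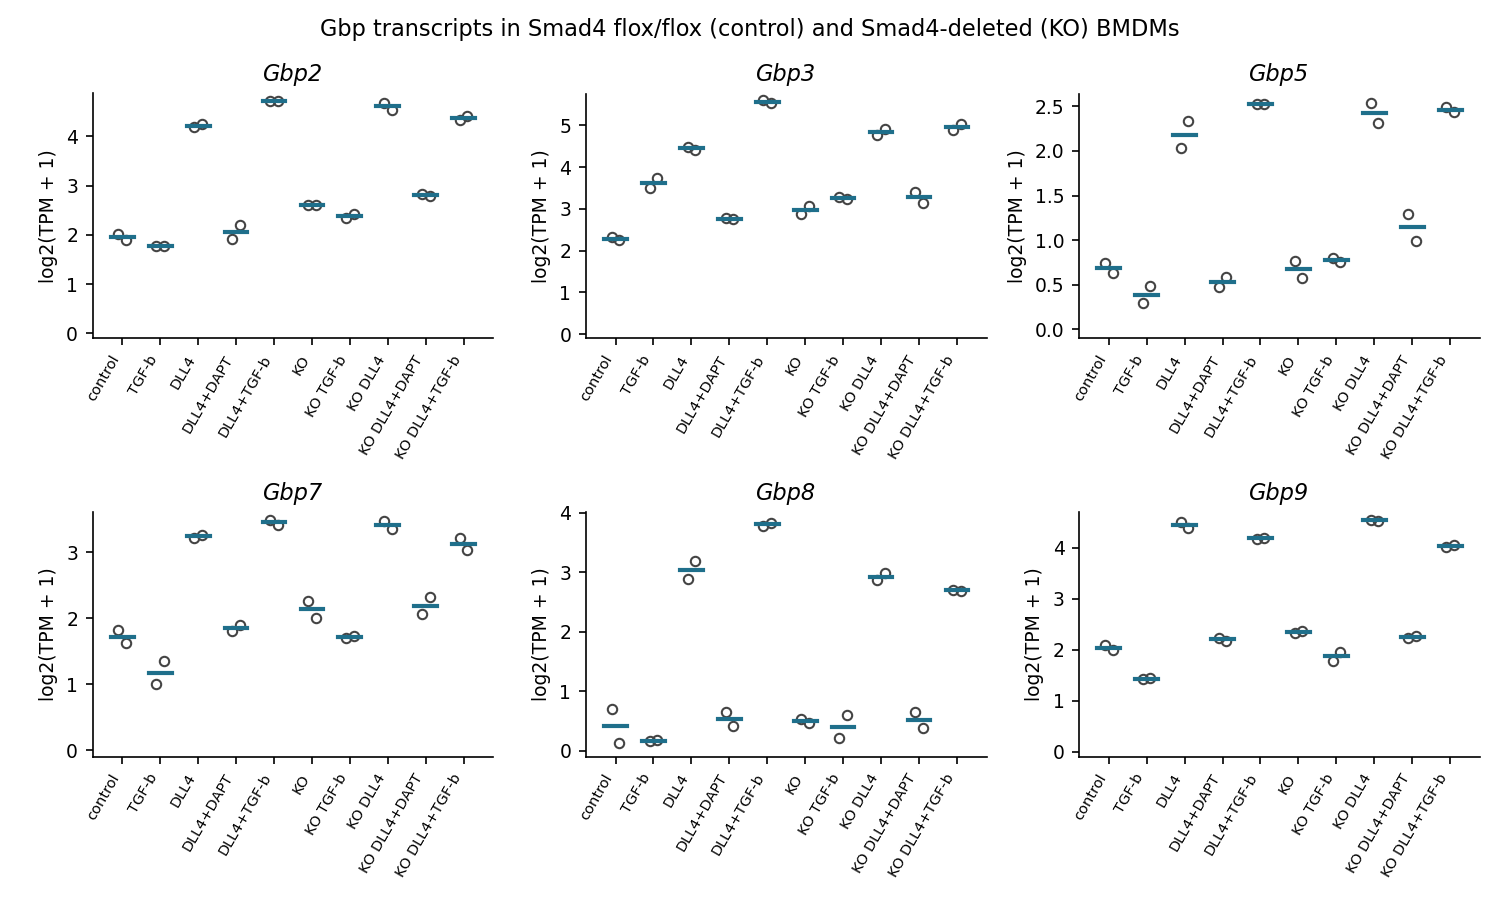
Levels of the 6 members tested, as log2(TPM + 1), in control and Smad4 knockout BMDMs under 5 treatments. Points are libraries and bars are group means. DLL4 groups are high and DLL4 with DAPT groups are near untreated ones in both genotypes, and TGF-beta moves Gbp3 in control cells.

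C57BL/6J BMDMs given DLL4 form a separate experiment and table. At 24 h 6 of 6 members tested were called higher (2.22% of genes called higher). Gbp9 was at 1.10 and 1.26 TPM untreated and 15.5 and 17.4 TPM with DLL4 (3.00 ± 0.13, adjusted p = 1.8e-09, limma). Gbp2 was at 3.19 and 3.24 against 15.7 and 18.8 TPM (2.11 ± 0.14, 1.8e-07), and Gbp3 at 2.06 and 2.06 against 13.4 and 14.5 TPM (2.29 ± 0.13, 2.1e-08). The groups were apart in each. Of the 6, all but Gbp2 reach 4 TPM only in groups given DLL4, so that the count supports nothing by itself. At 72 h 4 of 6 were called higher (1.31% of genes called higher), namely Gbp8 (2.41 ± 0.25), Gbp9 (2.27 ± 0.13), Gbp3 (1.18 ± 0.13) and Gbp2 (1.16 ± 0.14). Of these too, all but Gbp2 pass the filter only through groups given DLL4, so that the 72 h count supports nothing by itself.

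Untreated cells were not level between the times. Gbp2 was at 3.19 and 3.24 TPM untreated at 24 h and 7.91 and 7.25 TPM at 72 h (1.02 ± 0.14, adjusted p = 3.4e-05, limma; 1 of 6 members, 6.44% of genes called higher), a call lost without the first 72 h untreated library (0.97, adjusted p = 0.00071). The DLL4 response at 72 h differed from that at 24 h by -1.10 ± 0.18 in Gbp3 (0.0013) and -1.07 ± 0.27 in Gbp7 (0.019), 2 of 6 members, where 1.05% of genes were called lower. Under quantile normalization both were uncalled (-0.88 and -0.82). The Gbp3 call was lost without the first 72 h untreated library (-0.98), and the Gbp7 call in 7 of the 8 fits that left out 1 library, with an adjusted p of 0.05 to 0.076.

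TGF-beta on DLL4 again took Gbp3 up at 24 h, from 13.4 and 14.5 to 37.1 and 39.3 TPM (1.39 ± 0.13, adjusted p = 1.6e-06, limma; 1 of 6 members, 2.31% of genes called higher). At 72 h it was at 9.33 and 9.03 TPM with DLL4 and 10.7 and 12.3 TPM with both (0.29 ± 0.13, 0.08), and 0 of 6 members were called (5.65% of genes, 2 members at unadjusted p below 0.05). The 24 h groups were apart. Whether the TGF-beta response differed between the times was not tested.

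Members of the family were lower with DMHCA where DLL4 and TGF-beta were present. At 24 h 5 of 6 members were called lower with all of DLL4, TGF-beta and DMHCA than with DLL4 and TGF-beta, where 0.788% of genes were called lower. Gbp2 was at 23.0 and 24.5 TPM without and 10.5 and 8.32 TPM with DMHCA (-1.26 ± 0.14, adjusted p = 5.0e-05, limma). Gbp9 was at 17.4 and 17.7 against 7.57 and 6.6 TPM (-1.20 ± 0.13, 2.6e-05), and Gbp7 at 11.2 and 11.5 against 3.43 and 3.71 TPM (-1.44 ± 0.19, 0.00014). In none did the groups overlap. Gbp8 fell by 1.37 and Gbp5 by 1.00, the latter a call lost without the first library of either group (-0.95 and -0.83, adjusted p = 0.029 and 0.034) and under quantile normalization (-0.92). Gbp5 reaches 4 TPM in 2 libraries of the table only with DLL4 and TGF-beta at 24 h, the high group here, so that it had to differ. Gbp7 and Gbp8 pass the filter only through groups given DLL4 without DMHCA. The count therefore supports nothing by itself. Gbp3 was at 37.1 and 39.3 against 20.2 and 19.7 TPM (-0.90 ± 0.13, 0.00023), just under 2-fold.

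At 72 h 3 of 6 members were called lower with DMHCA (4.57% of genes called lower). Of these, Gbp7 and Gbp8 pass the filter only through groups given DLL4 without DMHCA, so that this count supports nothing by itself. With DMHCA, Gbp8 reaches 4 TPM in the second 72 h library alone. Gbp7 was at 6.18 and 6.41 TPM without and 1.29 and 3.07 TPM with it, Gbp8 at 8.29 and 9.82 against 2.08 and 5.62 TPM, and Gbp2 at 17.2 and 20.0 against 7.12 and 9.86 TPM. The differences were -1.26 ± 0.19, -1.15 ± 0.25 and -1.06 ± 0.14. The first DMHCA library was the lower of its pair in all 3, and without it none was called (-0.84, -0.60 and -0.85). Without the second library of DLL4 and TGF-beta the Gbp2 call was also lost (-0.95, adjusted p = 0.0018), as under quantile normalization (-0.98). A fit on the compared groups alone did not call Gbp7 or Gbp8 (adjusted p = 0.063 and 0.13, limma).

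With DMHCA alone limma called 0 of 6 members after 24 h (5.43% of genes, 4 members at unadjusted p below 0.05), with Gbp2 at 3.19 and 3.24 TPM untreated and 4.54 and 5.46 TPM with DMHCA (0.51 ± 0.14, 0.011). Gbp5, the member with the largest difference, was at 0.207 and 0.237 against 0.543 and 1.21 TPM (0.60 ± 0.19, 0.021), and was called with a pseudocount of 0.25 (1.19, adjusted p = 0.0051) and by voom (1.80, adjusted p = 0.0098). Whether DMHCA alone and DMHCA on DLL4 and TGF-beta differ was not tested. Both sets of groups were apart. Of the type I interferon-stimulated genes 12 rose and 0 fell of 14 tested in the same libraries, with Ifit3 by 2.44, Rsad2 by 2.34 and Rtp4 by 2.27, and Cxcl10 rose by 4.32 and Irf7 by 1.50. Neutrophil markers summed to 1899.5 to 2443 TPM untreated and 282 to 299 TPM with DMHCA, and monocyte markers to 401 to 413 against 56.7 to 59.6 TPM, and their part was not tested. DMHCA and desmosterol were given to different cells for different times, alone for 24 h and 48 h, and are not compared.

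**Figure D4:**
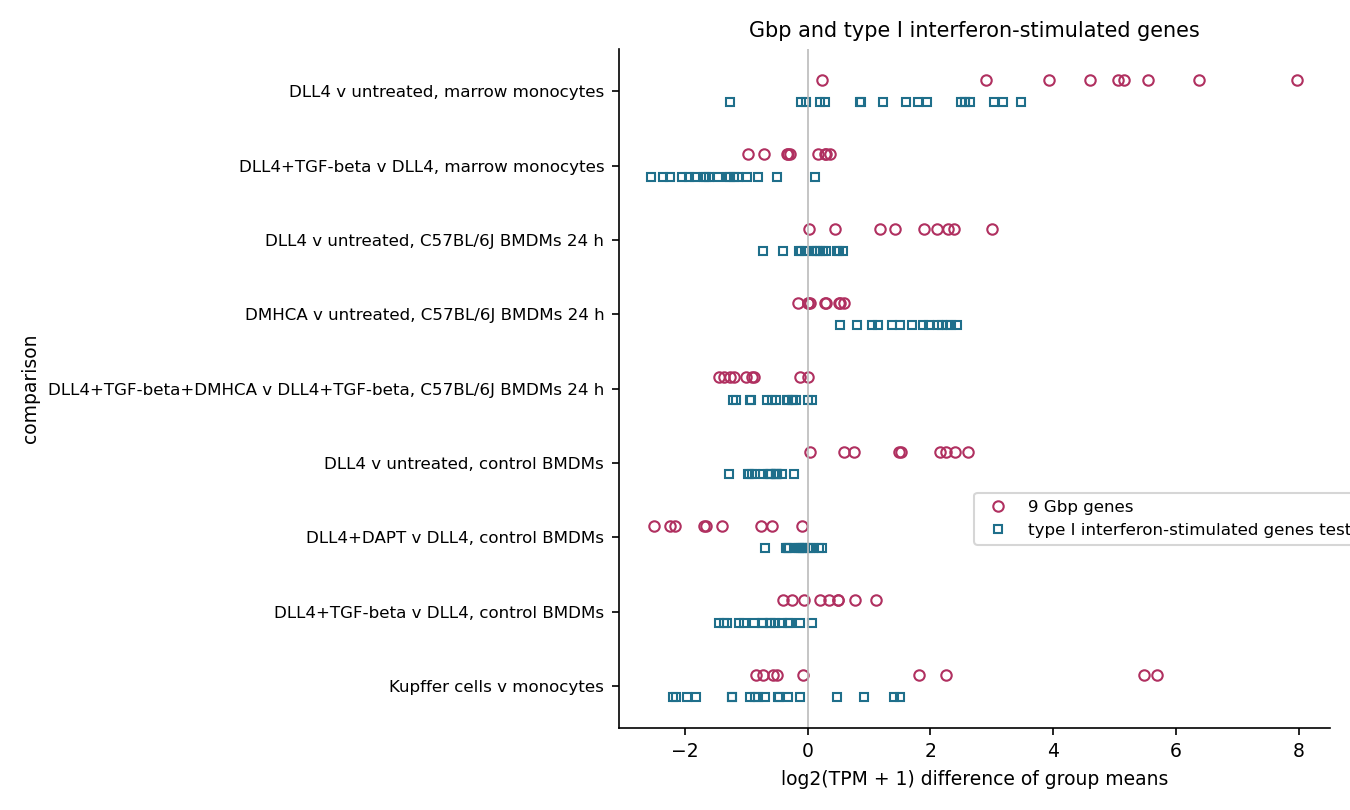
Log2(TPM + 1) differences of each of the 9 members (circles) and of each type I interferon-stimulated gene tested (squares) in 9 comparisons, with a line at 0. With DMHCA alone the 14 squares lie between 0.53 and 2.44 and the circles between -0.16 and 0.60. With DLL4 in control BMDMs the 16 squares lie below 0 and the 9 circles between 0.05 and 2.62.

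Set side by side, the DLL4 responses of the 3 cultures had Gbp9 first in the BMDMs of C57BL/6J mice at 24 h (3.00), Gbp8 first in Smad4 control BMDMs (2.62), and Gbp2b first in marrow monocytes (7.98). The cultures differ in cells, days and hours, so these values are not compared. Gbp8 was called lower in both in vivo blockades, and its calls with DLL4 in culture support nothing by themselves, since it passes the filter there only through groups given DLL4.

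**Figure D5:**
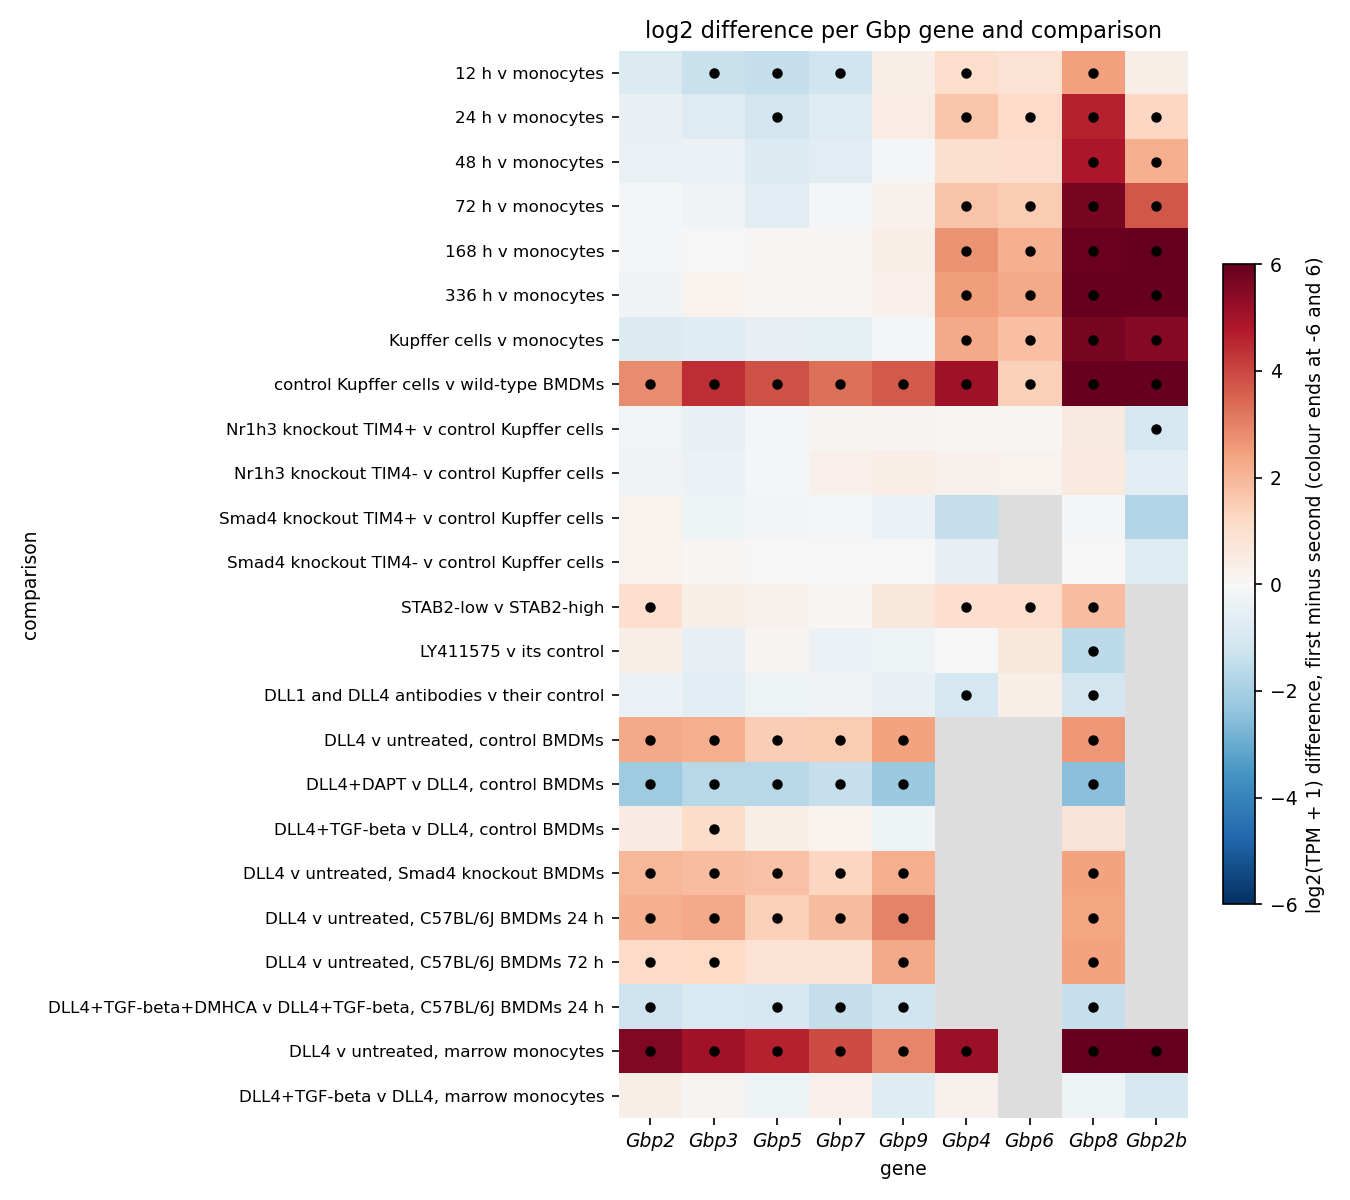
Log2(TPM + 1) differences of the 9 members (columns) in 24 comparisons (rows). Dots mark calls (limma, adjusted p below 0.05 and at least 2-fold) and grey cells did not reach the filter. Some dots are of members that pass the filter in their table only through groups on the higher side, as the text names. Such calls support nothing by themselves. Among them are the dots of Gbp8 in the rows of DLL4 against untreated cells, which passes only through groups given DLL4.

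Over the 47 groups, with log2(TPM + 1) group means centred within each table, most members followed the mean of the others. The correlation of each with the mean of the other 8 was 0.96 for Gbp4 and Gbp5, 0.95 for Gbp7, 0.93 for Gbp8, 0.92 for Gbp3, 0.89 for Gbp2, 0.86 for Gbp9, 0.84 for Gbp2b and 0.54 for Gbp6. Single pairs ran from 0.28 (Gbp2 and Gbp6) to 0.98 (Gbp5 and Gbp7). The lowest pair without Gbp6 was Gbp2b and Gbp9 (0.63). These groups share tables, controls and treatments, and are not independent. Among 7643 other genes, whose median r was -0.05, the 10 most like the mean over members were Pecam1 (0.94), Trafd1 (0.93), Tmem87a (0.93), Dip2b (0.92), Atp8a1 (0.92), Cd164 (0.92), Smg6 (0.92), Ganc (0.92), Tapbpl (0.91) and Dennd1b (0.91). Of the pathway genes, Irgm2 came at rank 25 (0.88) and Irf1 at rank 36 (0.87).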

How the data were processed

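The 104 RNA-seq libraries were deposited as 8 tables of TPM per gene (24940 genes each) that the authors made; the RNA was poly(A)-selected, per the labels' protocols. The submitters' processing notes name STAR, HOMER and mm10, with no version. TPM summed to 510684 to 574479 per library. Each library's reads were recovered from TPM steps, with 100.0% of values up to 20 reads whole within 0.1 reads. The 9 members and the 20 gene lists (10 pathway, 10 cell type markers) were chosen with earlier results of these data known. Text names all members, at most 4 called genes a list and comparison with the largest differences, Irf1, Irf8 and Socs1 called or not, and the 10 genes most correlated with the members; other names were chosen after their values were seen. A gene that this rule would name is not reported here. Tests used limma 3.58.1 (R 4.3.3) on log2(TPM + 1), within each table over all its groups, for genes with at least 4 TPM in 2 libraries, in 57 comparisons of which 5 were differences between responses. Summaries used Python 3.11.15, pandas 2.3.3, numpy 2.4.6 and matplotlib 3.10.9. The fits were tested on simulated data. Alternatives were a pseudocount of 0.25, no filter, quantile normalization, limma-voom on recovered reads, the compared groups only, a replicate block, and each library left out in turn.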

Additional observations from a re-analysis of the deposited data

Results flagged for a closer look

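The third of the 4 blood monocyte libraries stood far above the other 3 in 4 members: Gbp3 at 92.3 TPM, Gbp5 at 51.8 TPM, Gbp6 at 1.12 TPM and Gbp7 at 50.1 TPM. The gap to the nearest library was 0.86, 0.981, 0.906 and 0.831 of the group's range, above Dixon's 95% critical value for 4 libraries. The fourth library given antibodies to DLL1 and DLL4 stood above the other 3 in Gbp8, at 18.3 TPM (ratio 0.974). In all, 18 groups of values were tested, and chance flags about 1 in 20.

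Of 32 tests of a member's response between 2 settings, 5 were called by limma. The response of Gbp3 to TGF-beta differed between Smad4 knockout and control BMDMs by -1.06 (adjusted p = 0.00035, limma), and by -1.001 on top of DLL4 (0.00034). The DLL4 response at 72 h differed from that at 24 h by -1.10 in Gbp3 (0.0013) and by -1.07 in Gbp7 (0.019). The response of Gbp4 to LY411575 differed from its response to the antibodies by 1.05 (0.043).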

How the results depend on the processing

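No member's difference that was called changed sign under any alternative run. Counts of members called moved as follows, and the cause was not tested. With a pseudocount of 0.25 they went from 2 to 4 at 48 h against monocytes, from 1 to 2 for 24 h against 12 h, 168 h against 72 h and untreated BMDMs at 72 h against 24 h, from 1 to 0 for 168 h against Kupffer cells, and from 0 to 1 for DMHCA alone. With no filter they went from 1 to 0 for 168 h against Kupffer cells and for LY411575 against antibodies, and from 0 to 1 for TGF-beta on DLL4 at 72 h. Quantile normalization gave 2 in place of 5 at 24 h against monocytes, 2 in place of 1 for 168 h against 72 h and the genotype difference with TGF-beta on DLL4, 0 in place of 1 for 168 h against Kupffer cells, 1 in place of 4 for STAB2-low, 0 in place of 2 for the DLL4 response at 72 h against 24 h, 1 in place of 2 for antibodies, and 1 in place of 0 for TGF-beta on DLL4 in marrow monocytes. Voom gave 4 at 48 h against monocytes, 2 for 168 h against 72 h and the genotype difference with TGF-beta on DLL4, 1 for DMHCA alone, 3 for untreated BMDMs at 72 h against 24 h and 4 for the DLL4 response at 72 h against 24 h. A fit on the compared groups only gave 1 in place of 3 for DMHCA at 72 h.

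With 1 library left out, counts ran from 2 to 4 at 48 h against monocytes, 1 to 2 for 24 h against 12 h, 0 to 1 for 48 h against 24 h, 1 to 2, 1 to 3, 0 to 1 and 0 to 0 for 24, 48, 72 and 168 h against Kupffer cells, 0 to 1 for TIM4+ cells labelled Nr1h3 knockout, 2 to 3 for STAB2-low, 0 to 1 for both genotype differences with TGF-beta, 0 to 3 for DMHCA at 72 h, 0 to 1 for untreated BMDMs, 0 to 3 for the DLL4 response at 72 h against 24 h, 0 to 2 for antibodies and 0 to 1 for LY411575 against antibodies.

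Counts over all genes moved with the compared groups only for 24 h against 12 h (701 to 455), 72 h against 48 h (48 to 0), Nr1h3 knockout TIM4- against TIM4+ (63 to 19), DLL4 with DAPT against untreated (32 to 53) and antibodies (205 to 135, or 367 by voom). They also moved for 336 h against 168 h (8 to 3, pseudocount), Nr1h3 knockout BMDMs (44 to 23 by quantile, 87 by voom), STAB2-intermediate (1 to 2, 0 and 11 by pseudocount, no filter and voom), Smad4 knockout TIM4+ (96 to 60) and TIM4- cells (to 83, from 1.62% of genes tested, both with no filter) and between them (5 to 2, 2 and 3 by no filter, voom and compared groups), TGF-beta in Smad4 knockout BMDMs (56 to 90, voom), the genotype difference with DLL4 (0 to 3, 1 and 1 by no filter, voom and compared groups) and desmosterol on DLL4 and TGF-beta (21 to 41, voom). After quantile normalization the percentage of calls that were higher went from 37.5 to 55.6 for 336 h against 168 h, 24.4 to 39.9 for 336 h against Kupffer cells, 62.4 to 50.9 for the genotype difference with TGF-beta on DLL4, 71.3 to 61.1 for TGF-beta on DLL4 at 72 h, 27.1 to 37.8 for the same in marrow monocytes and 61.9 to 73.3 for desmosterol on top.

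By the rule that every pair's correlation be over 0.1, replicate numbers did not pair the libraries, since the lowest correlation of same-numbered libraries was -0.26 to 0.06 in 6 tables. In the in vivo blockade, title numbers of the antibody arm partly differ from the header numbers, and they recur in the drug arm, from mice of the other sex. Neither the correlation nor the block can test a pairing there. In the STAB2 sort the 6 pairs were all positive (0.06 to 0.14, median 0.14), and the fractions share title numbers. The block was not fitted in the niche and Smad4 Kupffer cell tables, whose groups share fewer than 2 numbers in their titles. With a replicate block, counts of members called stayed within 1.5 times (for example 1 for TIM4+ cells labelled Nr1h3 knockout), and the count over all genes moved for STAB2-intermediate against STAB2-high alone, from 1 to 27. Groups of 2 or 3 libraries limit each test, and low members near 1 TPM depend on the pseudocount.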
